A study of Mus musculus with 120 samples.

Results

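The hippocampus of 4 mice that carry the 175QK772T allele of Atxn1 was compared with that of 4 WT mice at 10 weeks of age, across all genes. The 8 libraries were chosen by the region, genotype and age in their labels, not by any measured value, and are 8 of the 120 in the series. The series sequenced bulk poly(A) RNA from 5 brain regions of C57BL/6J mice at each of 10 and 26 weeks, with 4 mice per genotype at each age. Brainstem was among the regions at 10 weeks only and medulla at 26 weeks only. The 175QK772T mice have 1 Atxn1 allele with an expanded glutamine stretch (175Q) and a K772T change, which alters the signal that takes ataxin-1 into the nucleus, and 1 allele with 2 glutamines (Atxn1 175QK772T/2Q). The 175Q mice (Atxn1 175Q/2Q) have the expanded allele without that change, and WT mice have neither. The WT group held 2 females and 2 males, the 175QK772T group 3 females and 1 male (replicate 4), and the 175Q group 2 of each sex. Beside this comparison stand 4 175Q mice of 10 weeks, the same genotypes in other mice at 26 weeks, and the cortex of the same 10-week mice. The design asks which changes remain once the expanded protein has the altered localization signal.

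Ataxin-1 is a chromatin-associated protein that binds the repressor Capicua, and an expanded glutamine stretch in it causes spinocerebellar ataxia type 1. Its nuclear localization signal is a short run of basic residues near the carboxyl end, and mutating the lysine there lowers entry into the nucleus. The hippocampus passes signals from granule cells of the dentate gyrus through the pyramidal cells of CA3 and CA2 to those of CA1, under the control of GABAergic interneurons. Memory and spatial coding depend on this circuit. Homeobox genes of the Hox clusters set the body axis in the embryo and are held silent in the adult forebrain by Polycomb complexes.

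The localization signal is shown first, because the 2 mutant genotypes differ in it. The reference codons around the lysine lie at chr13:45557175-45557204 (GRCm38, minus strand), in the last exon (8 of 8) of Atxn1, and the capitals mark the lysine codon (45557190 to 45557192).
Atxn1 signal: acagccacgaggAAGaggaggtggtcggcg
That lysine is codon 747 of 791 in the mouse reference transcript, and the allele is named for the position in the human protein. The files do not show the altered base, so the genotype was taken from the labels.

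Promoters of genes that the results below turn on are shown next: 3 that were near 0 in WT and higher in 175QK772T mice, and 2 that mark hippocampal neurons and were lower. Each is the 250 bases before the transcription start from RefSeq (GRCm38.p6), 5′ to 3′ on the strand of the gene, with every CG dinucleotide in capitals, because Polycomb complexes gather at promoters rich in CG.
Pax2, chr19:44755502-44755751, plus strand: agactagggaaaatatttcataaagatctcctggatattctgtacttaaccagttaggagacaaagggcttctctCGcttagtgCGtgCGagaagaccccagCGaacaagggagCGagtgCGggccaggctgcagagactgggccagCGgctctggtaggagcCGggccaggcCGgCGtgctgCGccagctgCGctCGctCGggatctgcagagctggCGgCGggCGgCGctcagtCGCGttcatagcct
Pou4f1, chr14:104468000-104468249, minus strand: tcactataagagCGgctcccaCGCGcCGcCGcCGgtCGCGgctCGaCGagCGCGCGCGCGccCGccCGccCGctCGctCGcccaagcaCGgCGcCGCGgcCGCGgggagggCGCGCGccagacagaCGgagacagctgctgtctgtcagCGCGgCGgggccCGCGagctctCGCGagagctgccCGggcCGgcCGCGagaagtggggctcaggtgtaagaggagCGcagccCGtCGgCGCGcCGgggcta
Hoxc4, chr15:103034145-103034394, plus strand: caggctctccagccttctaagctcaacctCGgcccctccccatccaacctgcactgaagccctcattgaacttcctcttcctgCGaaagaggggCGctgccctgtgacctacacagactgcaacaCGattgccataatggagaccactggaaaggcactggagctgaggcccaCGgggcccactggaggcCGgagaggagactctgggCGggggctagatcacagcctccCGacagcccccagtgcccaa
C1ql2, chr1:120340332-120340581, plus strand: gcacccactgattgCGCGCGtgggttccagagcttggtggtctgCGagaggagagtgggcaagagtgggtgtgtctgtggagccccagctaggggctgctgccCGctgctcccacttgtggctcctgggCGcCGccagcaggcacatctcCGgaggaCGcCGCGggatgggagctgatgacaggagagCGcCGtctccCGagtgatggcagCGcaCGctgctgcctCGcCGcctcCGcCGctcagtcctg
Wfs1, chr5:36988983-36989232, minus strand: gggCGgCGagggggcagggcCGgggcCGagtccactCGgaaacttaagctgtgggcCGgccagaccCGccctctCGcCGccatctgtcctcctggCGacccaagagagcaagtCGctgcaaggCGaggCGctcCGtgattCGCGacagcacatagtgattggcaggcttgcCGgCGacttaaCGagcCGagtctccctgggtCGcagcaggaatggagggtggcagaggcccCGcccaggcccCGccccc
They hold 20, 47, 8, 20 and 23 CG in turn. Over the 13600 tested genes matched to a promoter of that length the median was 14 CG, with 14 for the 820 matched genes that were higher and 17 for the 874 that were lower. Genes that were higher thus had the same median as all matched genes. Of the 12 Hox genes called higher, described below, 5 were matched, with a median of 7 CG (6 to 13). Of the 12 developmental transcription factors called higher 7 were matched, with a median of 17 CG (6 to 47).

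The 12 hippocampus libraries of 10 weeks held 74.2 to 102 M counted read pairs, with 4.77 to 5.19% of counts on mitochondrial genes. All 8 libraries of the comparison had the defining transcripts of hippocampal neurons and glia, with none of these list members at 0. WT replicate 2, 175QK772T replicate 3 and 175Q replicate 2 also held transcripts of the choroid plexus, which lies against the hippocampus: Ttr stood at 3430, 2670 and 3060 CPM (read pairs of a gene scaled to the library total) there and at 10.6 to 95.9 CPM in the other 9. Summed levels of 8 neocortical markers were 245 to 334 CPM in WT and 169 to 298 in 175QK772T libraries, those of 8 striatal markers 88.6 to 109 and 72.8 to 80.7, and those of 7 thalamic markers 95.7 to 110 and 73.7 to 108. The list of 8 hypothalamic and amygdalar markers summed to 1.1 to 2.79 CPM in WT and 1.06 to 1.98 CPM in 175QK772T, with up to 3 members at 0. Whether neighbouring tissue had a part in any result was not tested beyond the values given here and without the 3 libraries.

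Atxn1 itself (chr13:45549755-45965008, minus strand) was higher in the 175QK772T hippocampus. The 4 WT libraries held 74.9, 76.1, 79.6 and 76.6 CPM, and the 4 of 175QK772T held 93.2, 103, 102 and 106 CPM. The groups did not overlap, and the log2 fold change was 0.40 ± 0.05 (SE; edgeR's quasi-likelihood test, adjusted p = 2.96e-04). In 175Q mice Atxn1 stood at 92.9 ± 6.11 CPM (SD, n = 4). Counts per gene do not separate the 2 alleles. Around the gene, 8 of the 189 genes tested within 10 Mb were higher and 19 lower, or 14.3% called, against 9.88% on the rest of chromosome 13 and 10.8% on other chromosomes.

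In the 175QK772T hippocampus, many genes of hippocampal neurons, synapses and ion channels were lower than in WT, while some developmental regulators near 0 in WT were higher. Of 21071 genes tested, 2273 (10.8%) passed a Benjamini-Hochberg adjusted p of 0.05 in edgeR and are termed called, 1072 higher (5.09%) and 1201 lower (5.7%). The differences were mostly small, with a median of 0.302 on the log2 scale among called genes. A change of at least 2-fold was reached by 109 higher and 125 lower genes, and of at least 4-fold by 47 higher and 11 lower genes. The count fell to 1317 without WT replicate 1, to 1376 without WT replicate 3, to 1271 without 175QK772T replicate 4 and to 819 (213 higher, 606 lower) in females only. Values of the 2 groups did not overlap in 4017 genes (19.1%).

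**Figure D1:**
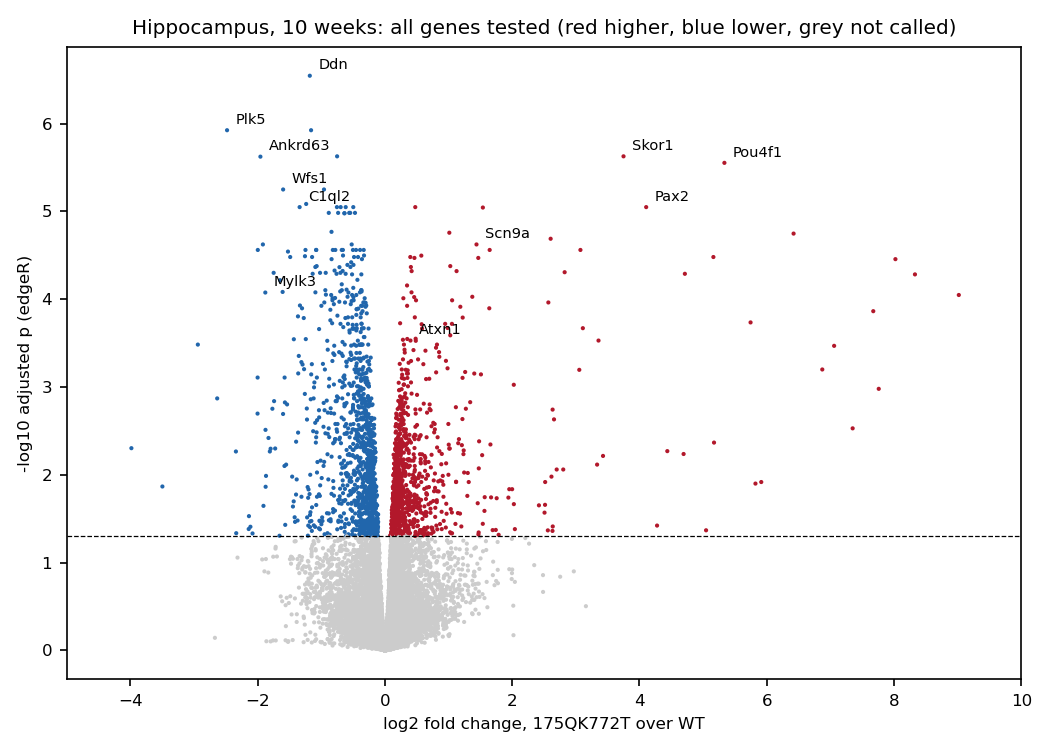
Every gene tested in the hippocampus at 10 weeks, with the log2 fold change of 175QK772T over WT on the x axis and -log10 of the adjusted p on the y axis. Red points are the 1072 genes called higher, blue points the 1201 called lower and grey points the rest; most called genes lie within 2-fold of WT, and the points far to the right are genes near 0 in WT.

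The 12 largest rises were taken from called genes that averaged 1 CPM or more over the 8 libraries and did not overlap between groups, and included the developmental transcription factors Pax2, Tal1, Twist1, Onecut1 and Onecut2. Pax2, a paired-box factor of the kidney and hindbrain, stood at 0.281, 0.183, 0.301 and 0.452 CPM in WT and at 4.48, 6.64, 6.92 and 3.59 CPM in 175QK772T (log2 fold change 4.11 ± 0.30, edgeR adjusted p = 8.94e-06). Every mutant library was several times above every WT library. Tal1, a basic helix-loop-helix factor of blood and midbrain neurons, was at 1.69, 1.59, 1.65 and 1.94 CPM in WT and at 5.89, 6.35, 6.02 and 4.21 CPM in 175QK772T (1.65 ± 0.15). Twist1, a mesoderm factor of the same class, was at 0.857, 1.07, 1.13 and 0.784 CPM against 2.65, 3.71, 3.43 and 2.62 CPM (1.64 ± 0.18). For Tal1, replicate 4 was the lowest of the mutant libraries. Scn9a, a sodium channel of sensory neurons, was at 3.71, 4.03, 4.28 and 4.46 CPM in WT and at 11.2, 10.7, 12.1 and 10.6 CPM in 175QK772T (1.44 ± 0.12). Onecut2, a homeobox factor, rose from a mean of 17.2 to 39 CPM (1.19 ± 0.13), and its relative Onecut1 from 0.784 to 1.87 CPM (1.40 ± 0.20). The others were Otogl, an inner ear matrix gene (1.54 ± 0.12), Wnt16, a Wnt ligand (1.51 ± 0.21), P2rx5, an ATP-gated channel (1.22 ± 0.14), the antisense genes Spag17os (2.60 ± 0.22) and Igf2os (2.57 ± 0.28), and CT486005.1 (1.37 ± 0.15). Pax2, Twist1, Onecut1, Wnt16, Spag17os and Igf2os averaged less than 1 CPM in WT and reached that level through the mutant libraries. The edgeR adjusted p of these 12 genes was at most 7.19e-04, and each was called in every alternative run.

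The 12 largest falls, by the same rule, included the neuronal gene Plk5 and the CA1 marker Wfs1. Plk5, a polo-like kinase family member found in neurons, stood at 24.6, 22, 28.2 and 27 CPM in WT and at 4.04, 5.27, 6.09 and 3.83 CPM in 175QK772T (-2.48 ± 0.13, edgeR adjusted p = 1.19e-06). The highest mutant library was below the lowest WT library by several times. Ankrd63, an ankyrin repeat gene, was at 20.5, 18, 23.6 and 18 CPM against 5.75, 4.45, 5.73 and 4.99 CPM (-1.96 ± 0.12). Wfs1, which encodes the endoplasmic reticulum protein wolframin and marks CA1, was at 121, 117, 151 and 128 CPM against 48.4, 41.2, 46.4 and 38.5 CPM (-1.60 ± 0.11). The others were Htra4, a serine protease (-2.0 ± 0.18), Cldn22, a claudin (-1.92 ± 0.16), Mylk3, a myosin light chain kinase (-1.88 ± 0.20), Nhlh1, a neuronal helix-loop-helix factor (-1.79 ± 0.34), Ier5l (-1.77 ± 0.29), Itga11, an integrin (-1.75 ± 0.17), Fst, which binds activin (-1.74 ± 0.27), Alox12b, a lipoxygenase (-1.65 ± 0.17), and Wnt9a, a Wnt ligand (-1.61 ± 0.17). The edgeR adjusted p of the 12 was at most 0.00505, and only the call of Nhlh1 was lost in an alternative (females only, adjusted p = 0.0772).

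**Figure D2:**
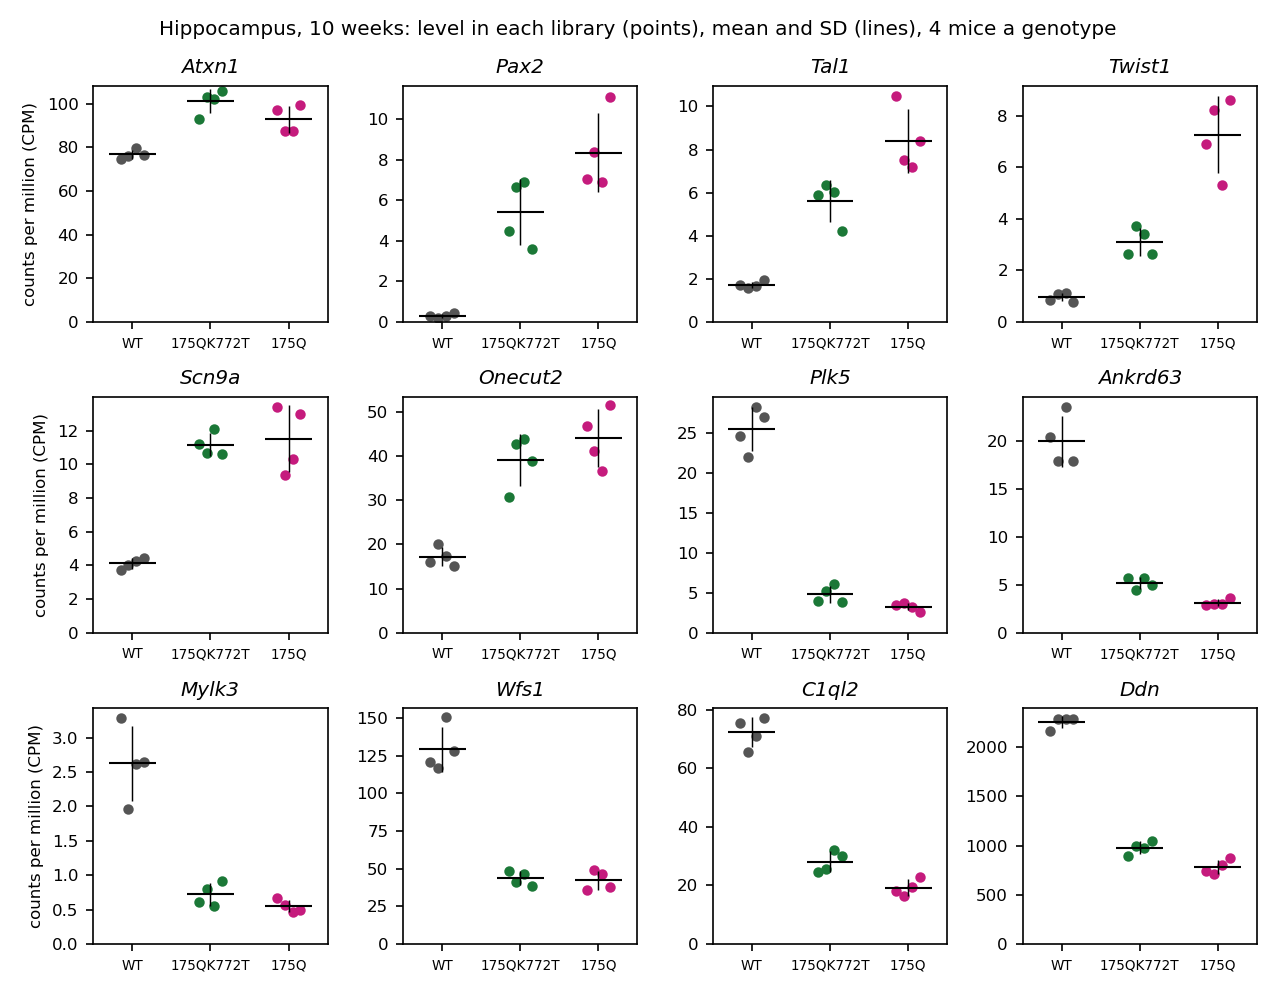
Level of 12 genes in each 10-week hippocampus library, in CPM on the y axis, by genotype on the x axis; points are libraries, horizontal lines means and vertical lines SDs of 4 mice. Atxn1, Pax2, Tal1, Twist1, Scn9a and Onecut2 lie higher in all 175QK772T libraries than in any WT library, and Plk5, Ankrd63, Mylk3, Wfs1, C1ql2 and Ddn lie lower.

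Many markers of the principal cells of the hippocampus were lower. Of 12 markers of dentate granule cells 8 fell and none rose, where 5.7% of all genes tested fell. C1ql2, which granule cells secrete at their mossy fibre synapses, was at 75.5, 65.7, 71.0 and 77.2 CPM in WT and at 24.5, 25.7, 32.1 and 29.9 CPM in 175QK772T (-1.34 ± 0.10, edgeR adjusted p = 8.94e-06). Stxbp6, a regulator of vesicle fusion, was at 127, 117, 129 and 133 CPM against 59.9, 62.9, 68.6 and 68.4 CPM (-0.96 ± 0.07). Both genes were lower in all 4 mutants than in any WT mouse. The other granule cell markers that fell were Lct (-1.33 ± 0.15), Trpc6 (-0.91 ± 0.11), Rasl10a (-0.82 ± 0.09), Glis3 (-0.79 ± 0.10), Npnt (-0.53 ± 0.07) and Pdzd2 (-0.50 ± 0.08). Prox1, the factor that defines granule cells, was at -0.17 ± 0.12 and did not pass. The median of the 12 was -0.66, against 0.00742 over all genes tested, and their summed level was 453 to 583 CPM in 175QK772T and 746 to 809 CPM in WT. In bulk tissue, fewer cells of a type and less RNA per cell cannot be told apart.

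Pyramidal cell markers followed with smaller counts, again beside 5.7% of all genes tested that fell. Of 12 CA1 markers 5 fell: Wfs1, Lefty1, a signalling ligand (-1.30 ± 0.15), Gpr161 (-0.67 ± 0.10), Mpped1 (-0.34 ± 0.07) and Man1a (-0.33 ± 0.08). Of 8 CA2 markers 4 fell, namely Rgs14, a regulator of G-protein signals that limits plasticity there (-0.84 ± 0.07), Dusp5 (-0.73 ± 0.18), Amigo2 (-0.65 ± 0.11) and Necab2 (-0.60 ± 0.08). Rgs14 was at 119, 111, 110 and 104 CPM in WT and at 54.8, 64.8, 64.6 and 62.8 CPM in 175QK772T. Of 9 CA3 markers 4 fell: Bok, a BCL2 family member (-1.24 ± 0.09), Iyd (-0.61 ± 0.18), Hs3st4 (-0.52 ± 0.06) and Npy2r (-0.45 ± 0.13). The medians were -0.33, -0.545 and -0.328 for CA1, CA2 and CA3. No member of the 3 lists rose. Without 175QK772T replicate 4, the sole male mutant, 3 CA1 and 2 CA3 markers were called, and in females only 2 CA3 markers; the call of Npy2r was lost without any of WT replicates 1, 2 and 3 or 175QK772T replicates 1, 2 and 4.

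Markers of GABAergic interneurons were also lower, with 8 of 12 called and none higher (median -0.353), where 5.7% of all genes tested fell. Gad1, the enzyme that makes GABA, was at 344, 318, 342 and 322 CPM in WT and at 257, 252, 250 and 259 CPM in 175QK772T (-0.39 ± 0.03, edgeR adjusted p = 2.75e-05). The neuropeptide genes Vip (-0.78 ± 0.14), Sst (-0.66 ± 0.10) and Npy (-0.37 ± 0.08) fell, as did Htr3a, a serotonin-gated channel (-0.67 ± 0.08), Reln (-0.42 ± 0.07), Lhx6 (-0.34 ± 0.09) and Gad2 (-0.31 ± 0.05). Sst was at 204, 193, 201 and 190 CPM in WT and at 150, 109, 106 and 132 CPM in 175QK772T, with replicate 1 the highest of the mutants. The vesicular transporter gene Slc32a1 (-0.14 ± 0.10), Pvalb (-0.29 ± 0.10), Cck (-0.20 ± 0.07) and Dlx1 (0.05 ± 0.09) did not pass. The 8 calls were also made without the 3 libraries with choroid plexus transcripts.

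Of 110 tested markers of glia, other neurons and other cells, in 13 lists, 12 were called (10.9%), which is near the 10.8% of all genes. The lists differed, so this share describes no single cell type. None of 12 microglia markers (median 0.0195) or 12 oligodendrocyte markers (0.103) was called. Nor was any of 8 markers of oligodendrocyte precursors (-0.054), 8 of endothelial cells (-0.0268) or 7 of ependymal cells (-0.247). The 12 markers of choroid plexus (-1.18) and the 8 of striatal neurons (-0.313) were not called either. Without the 3 libraries with choroid plexus transcripts these last medians were 0.333 and -0.249. Summed striatal markers did not overlap, at 88.6 to 109 CPM in WT and 72.8 to 80.7 CPM in 175QK772T. The lack of calls thus does not show that the striatal list was unchanged. Summed microglia markers were at 464 to 488 CPM in WT and at 461 to 517 CPM in 175QK772T. Summed astrocyte markers were at 7500 to 8290 CPM in WT and at 6780 to 7050 CPM in 175QK772T. Of 12 astrocyte markers 3 fell: the glutamate transporter gene Slc1a2 (-0.22 ± 0.04), the gap junction gene Gja1 (-0.22 ± 0.06) and Gfap (-0.20 ± 0.06). All 3 calls were lost without 175QK772T replicate 4 and in females only, that of Gja1 also without WT replicate 1 or 4, and that of Gfap also without WT replicate 1, 2 or 4 or 175QK772T replicate 1 or 3. Of 9 genes of adult-born immature neurons 3 rose: Neurod1 (0.40 ± 0.10), Dcx, a microtubule protein of migrating neurons (0.34 ± 0.07), and Sox11 (0.27 ± 0.07). Dcx was at 36, 35.3, 38.3 and 41.2 CPM in WT and at 47.7, 46.9, 46.6 and 48.4 CPM in 175QK772T. Neurod1 and Sox11 lost their calls without WT replicate 3, without 175QK772T replicate 4 or without the 3 libraries with choroid plexus transcripts. Sox11 also lost its call without WT replicate 1 or 2 or 175QK772T replicate 2 or 3. In females only the calls of Neurod1, Dcx and Sox11 were all lost. Among 6 mossy cell markers Calb2 fell (-0.48 ± 0.10) and Glipr1 rose (0.44 ± 0.12), and both calls were lost without 175QK772T replicate 4, that of Glipr1 also without any 1 WT library or 175QK772T replicate 1 or 3. The thalamic marker Prkcd fell (-0.86 ± 0.10), and of 8 neocortical markers Lamp5 (-0.80 ± 0.12), Fezf2 (-0.40 ± 0.10) and Rorb (-0.30 ± 0.09) fell, beside the summed levels of those lists given above. The calls of Fezf2 and Rorb were lost without WT replicate 1 or 3 or 175QK772T replicate 2 or 4, and that of Rorb also without WT replicate 2 or 4 or 175QK772T replicate 3. Of 8 hypothalamic and amygdalar markers only Pomc passed the low-count filter (-0.06 ± 0.34, not called).

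**Figure D3:**
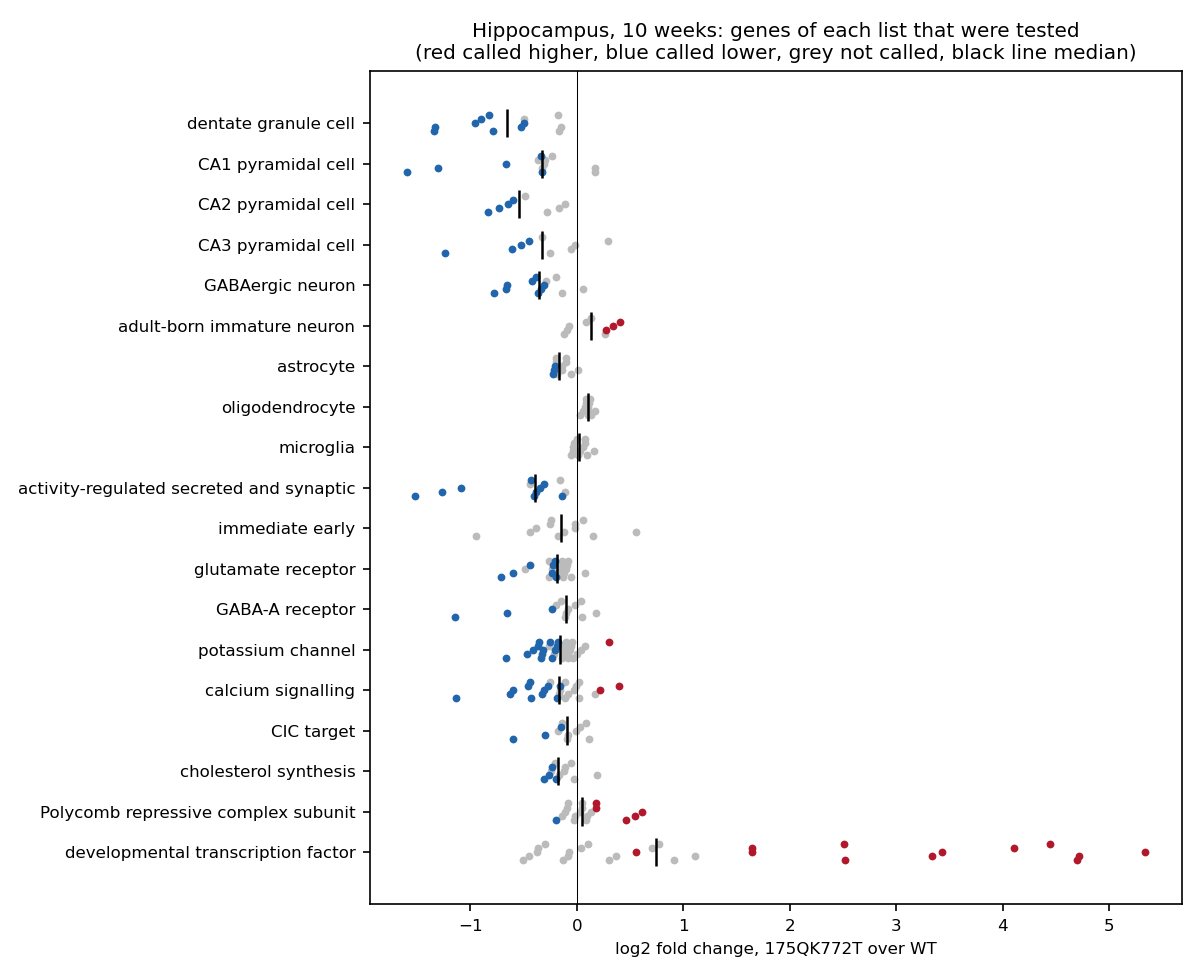
Log2 fold change of 175QK772T over WT on the x axis for each tested gene of 19 lists on the y axis; points are genes, red called higher, blue called lower and grey not called, and black lines are medians. The neuronal and synaptic lists lie to the left, apart from adult-born immature neurons (median 0.135). Microglia and oligodendrocyte genes lie around 0, and the developmental factors reach far to the right, where only genes that passed the low-count filter are drawn.

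Of 12 secreted and synaptic genes that neuronal activity regulates 9 fell and none rose (median -0.397), where 5.7% of all genes tested fell. Penk and Pdyn, which encode opioid precursors, were among the 9. Penk was at 22.1, 24.7, 24.5 and 27.1 CPM in WT and at 8.89, 7.57, 6.84 and 10.4 CPM in 175QK772T (-1.52 ± 0.14, edgeR adjusted p = 2.87e-05). Pdyn was at 15.5, 13.2, 15.9 and 12.6 CPM against 6.05, 7.73, 6.94 and 6.49 CPM (-1.09 ± 0.10). The prostaglandin synthase gene Ptgs2 (-1.27 ± 0.18), Nptx1 (-0.43 ± 0.08), Inhba (-0.41 ± 0.10), Homer1 (-0.39 ± 0.05), Sorcs3 (-0.35 ± 0.06), Bdnf (-0.31 ± 0.09) and Scg2 (-0.14 ± 0.04) also fell. Without 175QK772T replicate 4, 6 genes of this list were called lower, 6 in females only and 8 without the 3 libraries with choroid plexus transcripts. Of 12 immediate early genes none was called, with Egr2 at -0.95 ± 0.33 (edgeR adjusted p = 0.0878) and Fos at 0.56 ± 0.39.

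Receptors and channels were lower in part, beside 5.7% of all genes tested that fell and 5.09% that rose. Of 22 glutamate receptor genes 7 fell and none rose (median -0.189). Grin2a, the NMDA receptor subunit of mature synapses, was at 407, 404, 375 and 363 CPM in WT and at 202, 237, 240 and 250 CPM in 175QK772T (-0.72 ± 0.09, edgeR adjusted p = 4.01e-04). Grm2, a metabotropic receptor of mossy fibre terminals (-0.60 ± 0.11), the AMPA receptor gene Gria1 (-0.45 ± 0.08) and the kainate receptor gene Grik5 (-0.23 ± 0.04) fell as well. Of 12 GABA-A receptor genes 3 fell: Gabrd (-1.14 ± 0.10) and Gabra5 (-0.66 ± 0.06), the subunits of extrasynaptic receptors, and Gabra4 (-0.23 ± 0.04). Gabrd was at 29.5, 24.3, 29.7 and 28 CPM against 13.9, 11.8, 11.1 and 13.7 CPM. Of 30 potassium channel genes 13 fell, such as Kcnh3 (-0.66 ± 0.06), Kcnc1, a channel of fast-spiking cells (-0.47 ± 0.04), and Kcnn2 (-0.36 ± 0.06), and Kcnn3 rose (0.30 ± 0.08). Without 175QK772T replicate 4, 4 glutamate receptor genes and 7 potassium channel genes were called lower, and in females only 3 and 8.

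Calcium signalling genes split. Of 24, 11 fell and 2 rose, where 5.7% of all genes tested fell and 5.09% rose. Homer3, a postsynaptic scaffold, was at 56, 62.1, 44.9 and 46.7 CPM in WT and at 20.6, 22.7, 26.9 and 24.1 CPM in 175QK772T (-1.13 ± 0.11, edgeR adjusted p = 5.14e-05). Hpca (-0.63 ± 0.11) and the kinase genes Camk2a (-0.60 ± 0.06) and Camk2b (-0.44 ± 0.07) fell. The genes of 2 voltage-gated calcium channels, Cacna1g (0.39 ± 0.07) and Cacna1b (0.22 ± 0.04), rose. In females only 7 fell and none was called higher. Ddn, which encodes the postsynaptic protein dendrin, had the smallest adjusted p at 10 weeks: it was at 2170, 2290, 2290 and 2290 CPM in WT and at 893, 1000, 972 and 1050 CPM in 175QK772T (-1.18 ± 0.05, edgeR adjusted p = 2.85e-07). Lzts3, another postsynaptic protein, fell from a mean of 246 to 145 CPM (-0.75 ± 0.04), and Smad3, which carries transforming growth factor signals, from 85.8 to 55.3 CPM (-0.61 ± 0.04).

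The counts of the next lists stand beside 5.7% of all genes tested that fell and 5.09% that rose. Of 11 tested Capicua target genes 3 fell, Dusp4 (-0.60 ± 0.10), Etv1 (-0.30 ± 0.09) and Spred2 (-0.15 ± 0.04), and none rose. The calls of Etv1 and Spred2 were lost without WT replicate 1 or 3 or 175QK772T replicate 2 or 4. That of Etv1 was also lost without WT replicate 4 or 175QK772T replicate 3, and that of Spred2 without WT replicate 2 or 175QK772T replicate 1. None of 10 tested genes of ataxin-1 partners was called, with Hdac3 nearest (0.10 ± 0.03, edgeR adjusted p = 0.0581). Among 10 heat shock genes Hspa1b (-0.90 ± 0.15) and Hspa1a (-0.47 ± 0.11) fell, and Hspa8 (0.25 ± 0.04) and Hsp90aa1 (0.17 ± 0.04) rose; Hspa1a was not called without WT replicate 1 or 3. Of 12 cholesterol synthesis genes 4 fell, among them Fdft1 (-0.31 ± 0.08), Hmgcs1 (-0.26 ± 0.06) and Cyp51 (-0.23 ± 0.06). Fdft1 was not called without WT replicate 1, 3 or 4 or 175QK772T replicate 2. The count was 2 without 175QK772T replicate 4, 2 without the 3 libraries with choroid plexus transcripts and 0 in females only. Of 13 mitochondrial transcripts 1 fell, mt-Co2 (-1.0 ± 0.28), which ranged from 140 to 421 CPM over the WT libraries and was not called without WT replicate 1, 3 or 4 or 175QK772T replicate 2, 3 or 4. None of 12 interferon response genes was called (median 0.703); without the 3 libraries with choroid plexus transcripts 3 of them were called higher.

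Some transcription factors known from development were higher in the mutant libraries, several of them from a level near 0 in WT. Of 40 such factors on the list 28 passed the low-count filter, several only through the mutant libraries, so the number called describes those 28 alone: 12 were called higher and 16 were not called. Pou4f1, a factor of sensory neurons, had 2, 5, 2 and 1 read pairs in the 4 WT libraries and 93, 116, 136 and 126 in those of 175QK772T. Wt1, a kidney and gonad factor, had 8, 1, 4 and 0 against 122, 118, 103 and 86. No WT library came near any mutant library for these 2 genes. Others were well above 0 in WT: Tal1 had a mean of 1.72 CPM there, and Msx1 (7.02 CPM in WT and 6.18 CPM in 175QK772T) and Gata2 (3.32 and 3.11 CPM) were not called. The others called were Pax1, Pax2, Pou4f2, Tal1, Twist1, Tbx5, Tbx15, Hoxb5, Hoxc5 and Hoxd8. The corepressor gene Skor1, outside that list, had 10, 7, 14 and 13 read pairs in WT and 137, 237, 177 and 142 in 175QK772T. Fitted fold changes of genes this low depend on the prior count, so the read pairs are given.

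The Hox clusters, a list drawn up after values had been seen, held further genes of this kind. Hoxa5, Hoxb5, Hoxb9, Hoxc5 and Hoxd8 stand on both lists, so the called Hoxb5, Hoxc5 and Hoxd8 are counted in each. Of 39 Hox genes 16 passed the filter and 12 of these were called higher. Of the 16, 14 had at most 4 read pairs over the WT libraries and passed through the mutant libraries, 175Q included, so they could only be called higher, and this count and those under other settings describe the genes that passed alone. Hoxc4 had no read pair in any WT library and 33, 72, 41 and 38 in those of 175QK772T, which is at least 56.4-fold more against a floor of 3 counts over the WT group. Hoxc6 had none against 45, 38, 57 and 21 (at least 49.3-fold), Hoxa2 none against 12, 40, 46 and 21 (at least 36.5-fold), and Hoxb2 none against 28, 31, 26 and 27 (at least 34.3-fold). Other called Hox genes were Hoxa7, Hoxb5, Hoxb13, Hoxc5, Hoxc13, Hoxd8 and Hoxd9, from all 4 clusters. The floor covers counting error only. WT replicate 2 and 175QK772T replicate 3, the 2 libraries of this comparison with choroid plexus transcripts, had 0 and 41 read pairs of Hoxc4. Without the 3 libraries that hold them, 9 of 14 tested Hox genes and 9 of 27 tested developmental factors were called higher, and in females only 8 of 16 and 7 of 30.

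Subunits of the Polycomb complexes, which keep such genes silent, were measured beside them. Of 18, 5 rose, 1 fell and 12 were not called (median 0.0431), where 5.09% of all genes tested rose and 5.7% fell. Whether they bear on the genes above was not tested. Cbx8 was at 9.44, 8.06, 10.3 and 9.56 CPM in WT and at 14.3, 14.4, 14.4 and 14.8 CPM in 175QK772T (0.61 ± 0.10, edgeR adjusted p = 0.00155). Cbx2 (0.55 ± 0.12), Eed (0.18 ± 0.05) and Bmi1 (0.17 ± 0.04) also rose, and Rbbp7 fell (-0.20 ± 0.04). Ezh2, the methyltransferase, was at 0.04 ± 0.09 and Suz12 at 0.09 ± 0.04, and neither was called. Without 175QK772T replicate 4, 2 subunits were called higher, 2 in females only and 3 without the libraries with choroid plexus transcripts.

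**Figure D4:**
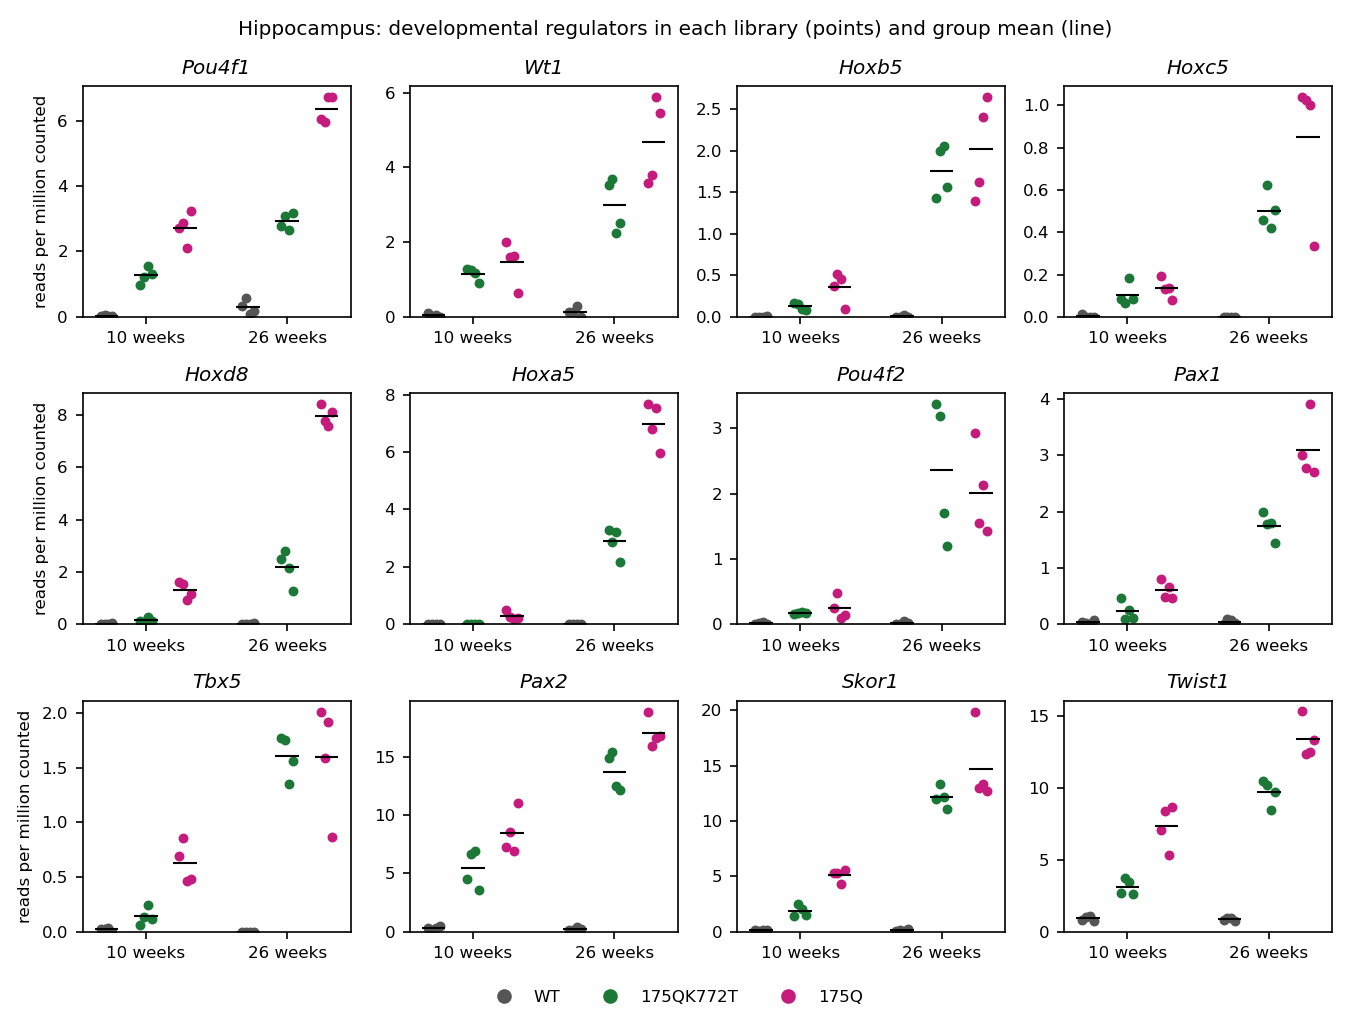
Level (CPM of total counts, y axis) of 12 developmental regulators in each hippocampus library at 10 and 26 weeks (x axis), with points for libraries and lines for group means of 4 mice. At both ages all WT points lie below all 175QK772T points, apart from Hoxa5 at 10 weeks, and the 26-week values come from other mice in a separate batch.

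The same comparison in 4 other mice of each genotype at 26 weeks asks whether the 10-week differences recur at a later age. Most of them did: of the genes called at 10 weeks and also tested at 26 weeks, 655 of 1048 higher genes (62.5%) and 926 of 1182 lower genes (78.3%) were called the same way, where 9.06% and 10% of all 19564 genes tested at both ages were called higher and lower at 26 weeks. These were 36.9% of the 1773 genes higher and 47.2% of the 1962 genes lower at 26 weeks, where 5.36% and 6.04% of the 19564 were called at 10 weeks. At 26 weeks 3765 of 19809 genes (19%) were called, 1802 higher (9.1%) and 1963 lower (9.91%). Of 2230 genes called at 10 weeks and tested at both ages 2183 (97.9%) had the same sign, and their median size was 0.297 at 10 weeks and 0.327 at 26 weeks on the log2 scale. Counts of called members at 26 weeks were 11 of 12 lower for dentate granule cells, 9 of 12 for CA1, 7 of 8 for CA2, 5 of 9 for CA3, 6 of 12 for GABAergic neurons and 10 of 12 for astrocytes. Of 9 genes of adult-born immature neurons 3 were higher at 10 weeks and 1 at 26 weeks. Their median was 0.135 at 10 weeks and -0.156 at 26 weeks. The ages were prepared and sequenced as separate batches, at 30.2 to 53.1 M read pairs a library for 26 weeks, and age and batch cannot be told apart.

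A test of the difference between the ages called 16 of 21806 genes (0.0734%), 10 with a higher (0.0459%) and 6 with a lower (0.0275%) log2 fold change at 26 weeks, and 1818 (8.34%) had an unadjusted p below 0.05. C1ql2 was at -1.34 at 10 weeks and -2.67 at 26 weeks (difference -1.33), and the CA1 marker Lefty1 at -1.30 and -2.52. The desmosome gene Dsp, a granule cell marker, was at -0.49 and did not pass at 10 weeks, and was at -2.71 at 26 weeks (difference -2.24). Twist1 (1.64 and 3.43), Skor1 (3.75 and 6.31), Tal1 (1.65 and 2.80) and Onecut2 (1.19 and 2.05) were further above WT at 26 weeks. Hoxa5 had 1 read pair over the WT and 3 over the 175QK772T libraries at 10 weeks, and 0 and 455 at 26 weeks. Hoxb9 had 0 and 5 at 10 weeks against 0 and 531 at 26 weeks, although the later libraries were less deep. Hoxa5 was not among the genes called for the difference between the ages. The counting settings of the 26-week libraries are not given in the sources used here. The difference for C1ql2 was not called without WT replicate 2 or 3 or 175QK772T replicate 3 or 4 of 10 weeks, or without WT replicate 1 or 3 or 175QK772T replicate 1, 2 or 4 of 26 weeks. The number of genes called was 10 without WT replicate 3 of 10 weeks, 26 without 175QK772T replicate 1 of 10 weeks and 9 without WT replicate 3 of 26 weeks.

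**Figure D5:**
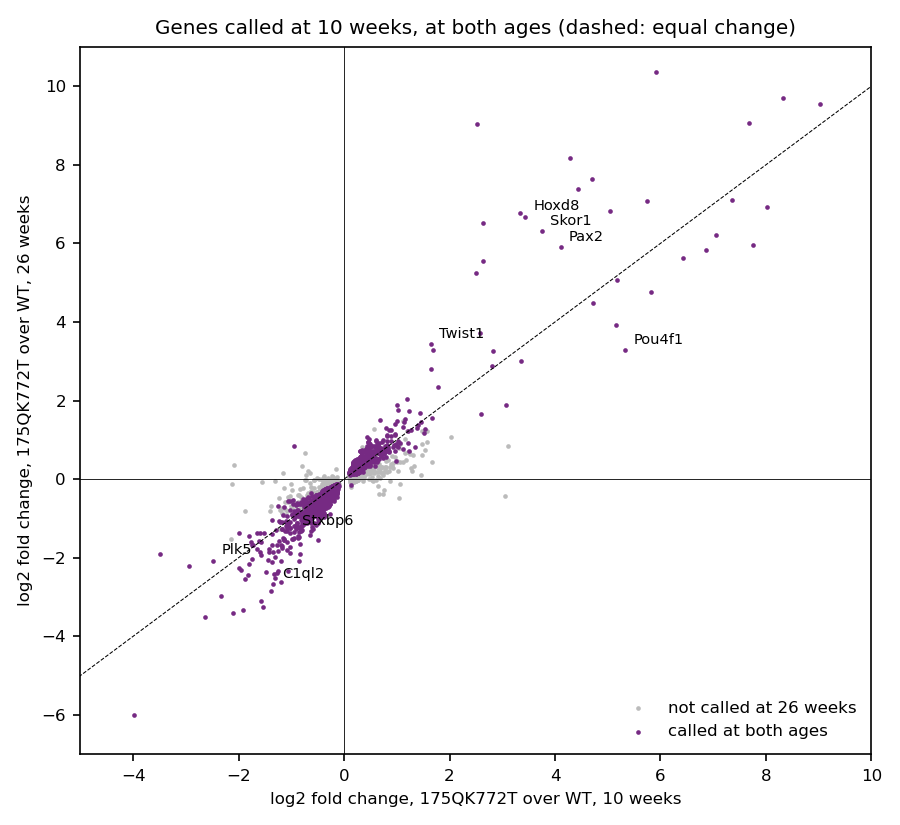
Log2 fold change of 175QK772T over WT in the hippocampus at 10 weeks (x axis) and at 26 weeks (y axis) for the 2230 genes called at 10 weeks and tested at both ages; purple points are the 1583 called at both ages, grey points the others and the dashed line equal change. Most points lie in the lower left and upper right quadrants, with C1ql2 and Lefty1 below the line and Twist1 and Skor1 above it.

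The 175Q mice of the same age bear on which differences depend on the localization signal, and both mutants were compared with the same 4 WT mice. Against WT, 4132 genes (19.6%) were called in 175Q mice, 2046 higher (9.71%) and 2086 lower (9.9%). The log2 fold changes in 175QK772T and 175Q stood side by side at -2.48 and -2.96 for Plk5, -1.60 and -1.61 for Wfs1, -1.34 and -1.92 for C1ql2, -1.18 and -1.53 for Ddn, 1.44 and 1.48 for Scn9a, 1.65 and 2.28 for Tal1 and 4.11 and 4.77 for Pax2. The direct test of 175QK772T against 175Q called 7 genes (0.0332%), 2 higher (0.00949%) and 5 lower (0.0237%), with 1589 (7.54%) at an unadjusted p below 0.05 and 189 by DESeq2. Higher in 175QK772T were Dio2, the deiodinase that activates thyroid hormone in astrocytes (0.40 ± 0.04, edgeR adjusted p = 0.00146), and Ddn (0.35 ± 0.05). Dio2 was at 70.0, 65.3, 68.0 and 69.5 CPM in WT, at 54.9, 53.1, 55.4 and 55.2 CPM in 175QK772T and at 42.8, 40.0, 40.8 and 42.4 CPM in 175Q. The 175QK772T libraries lay between the other groups with no overlap. Lower in 175QK772T were Skor1 (-1.50), Twist1 (-1.27), Tbx2 (-1.06), Hoxa5 and Hoxd8. Hoxd8 had 4 read pairs over the WT, 56 over the 175QK772T and 436 over the 175Q libraries, and Hoxa5 had 1, 3 and 97. Of the 7, only Dio2 was called in every alternative: 2 genes remained without 175QK772T replicate 1 or 2 or 175Q replicate 2, and 1 without 175QK772T replicate 4, without 175Q replicate 1 or without the 3 libraries with choroid plexus transcripts. At 26 weeks the direct test called 3107 genes (15.7%), and the difference between the ages in this contrast was not tested.

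The cortex of the same 10-week mice asks how far these differences belong to the hippocampus. In the cortex 5364 of 20748 genes (25.9%) were called for 175QK772T against WT. The difference between the regions, tested within mice, was called for 1438 of 21989 genes (6.54%), 788 with a higher (3.58%) and 650 with a lower (2.96%) log2 fold change in the hippocampus. Further below WT in the hippocampus than in the cortex were Homer3 (-1.13 and -0.08), Gabra5 (-0.66 and -0.09), Stxbp6 (-0.96 and -0.18), Rgs14 (-0.84 and -0.26), Amigo2 (-0.65 and 0.10) and the pyramidal cell factor Neurod6 (-0.71 and 0.19). Further above WT in the hippocampus were Skor1 (3.75 and 0.74), Igf2os (2.57 and -0.64) and P2rx5 (1.22 and -0.38). The reverse held for Onecut1 (1.40 and 5.09), Onecut2 (1.19 and 2.55), Twist1 (1.64 and 2.77) and Tal1 (1.65 and 2.58), which stood further above WT in the cortex. Myl4, a myosin light chain (-0.03 and -2.23), and Pdp1, a mitochondrial phosphatase (0.04 and -1.01), were not called in the hippocampus and fell in the cortex. For Plk5 both regions fell, by 2.48 in the hippocampus and by 3.15 in the cortex on the log2 scale.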

How the data were processed

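Counts of 8 hippocampus libraries from 10-week mice (175QK772T and WT) were compared. The deposited unit is raw counts: read pairs per gene, not normalized. Per the submitters' processing notes, the authors used bcl2fastq 2.20.0, Trimmomatic 0.33, HISAT2 2.1.0 and featureCounts of Subread 1.6.2 on GRCm38. For 10 weeks, Ensembl annotation and the strand were used in counting, per the file headers; the settings of the 26-week counts are not given in the sources used here, so values of overlapping, antisense and near-identical genes there are uncertain. In the descriptions, 26-week labels name the line 154Q and 154QKT, and the genotype field was used.

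Fits used edgeR 4.0.16 (R 4.3.3) on the 12 libraries of a region and age: filterByExpr, TMM scaling, quasi-likelihood test, terms for genotype and sex. CPM used TMM-scaled library sizes. The age difference was an interaction over 24 libraries, and the region difference an interaction with the mouse as block. The script was tested on simulated data with known changes. No 2 libraries were copies.

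Named genes were Atxn1, the 12 largest rises and 12 largest falls among called genes that averaged 1 CPM or more and did not overlap between groups, up to 3 called members of each list, up to 6 genes called at both ages and up to 5 each way of the other tests, without chromosome Y, Xist, Tsix and clone-named genes. Some genes that are included in the counts are not reported here by name. Other list members were named after their values were seen. The genotypes compared, the lists and the named-gene rule were chosen with earlier results of these data known. All 449 list genes were matched by symbol. Alternatives were DESeq2 1.42.0, RLE scaling, no filter, no sex term, a replicate block, the compared groups alone, each library left out, females only and, chosen after seeing the data, leaving out 3 libraries. Gene functions are general knowledge.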

Additional observations from a re-analysis of the deposited data

Results flagged for a closer look

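In 238 groups of 4 libraries, 16 held a library far from the other 3, and chance alone gives about 1 in 20 groups. Of WT libraries, replicate 2 stood low for Wnt16 (0.404 CPM) and P2rx5 (1.69 CPM) and high for the choroid plexus gene Ttr (3430 CPM). WT replicate 4 stood apart for Pomc (2.29 CPM), Rbbp7 (130 CPM) and Hoxa5 (0.0119 CPM, 1 read pair), WT replicate 3 for Etv1 (138 CPM) and WT replicate 1 for Ddn (2170 CPM). Of 175QK772T libraries, replicate 2 stood apart for Dusp4 (13.8 CPM) and Hspa1a (4.43 CPM), replicate 3 for Gja1 (185 CPM), Ttr (2670 CPM), Hspa1b (5.98 CPM) and Hmgcs1 (175 CPM), and replicate 4 for Alox12b (2.31 CPM) and Hoxa5 (0 CPM).

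The log2 fold change of 175QK772T over WT differed between 26 and 10 weeks for 12 named genes (edgeR adjusted p at most 0.0229), given here as 26 weeks minus 10 weeks. It was higher at 26 weeks for Sim2 (2.75), Skor1 (2.51), Foxd1 (1.97), Twist1 (1.77), Tbx2 (1.28), Tal1 (1.16) and Onecut2 (0.88). It was lower for Dsp (-2.24), C1ql2 (-1.33), Lefty1 (-1.21), Sowaha (-0.62) and Fam84a (-0.55). The difference for Fam84a was not called without WT replicate 2 or 4 or 175QK772T replicate 2, 3 or 4 of 10 weeks, or without WT replicate 1, 2 or 3 or 175QK772T replicate 1 or 4 of 26 weeks. Sim2, Foxd1 and Tbx2, developmental transcription factors, were not called at 10 weeks.

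Between the regions at 10 weeks 42 named genes differed (edgeR adjusted p at most 0.0392), given as hippocampus minus cortex. The difference was above 0 for genes that included Igf2os (3.09), Skor1 (3.04), Myl4 (2.19), Gpr153 (2.16), P2rx5 (1.59), Wnt16 (1.41), Alox12b (1.2), Pdp1 (1.03), Lamp5 (0.76), Plk5 (0.68), Camk2n1 (0.62), Grm2 (0.53), Homer1 (0.48), Dio2 (0.34) and Dcx (0.26). It was below 0 for the transcription factors Onecut1 (-3.71), Onecut2 (-1.39), Twist1 (-1.21), Tal1 (-0.97) and Neurod6 (-0.95). Among markers of hippocampal neurons it was below 0 for Dsp (-2.58), Lefty1 (-1.37), Gpr161 (-0.98), Stxbp6 (-0.80), Npy2r (-0.77), Amigo2 (-0.76), Wfs1 (-0.70) and Rgs14 (-0.63). Of these, Dsp was at -0.49 in the hippocampus, not called, and at 2.21 in the cortex, and Gpr161 at -0.67 and 0.30. The named markers C1ql2, Bok, Hs3st4, Rasl10a and Necab2 were not among the genes that differed. It was also below 0 for the synaptic and channel genes Homer3 (-1.05), Gabra5 (-0.60), Scn9a (-0.54), Ddn (-0.48), Camk2b (-0.39) and Kcnn2 (-0.31), and for Htra4 (-1.15), Fat4 (-1.0), Wnt9a (-0.91), Prkcd (-0.82), Mapk3 (-0.64) and Tbkbp1 (-0.60).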

How the results depend on the processing

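Against WT the 175QK772T count of 2273 was 2857 by DESeq2, 2195 with RLE scaling, 2960 without the low-count filter, 1307 with a replicate block and 819 in females only. Numbers shared by replicates did not pair the samples (correlations of -0.514 to 0.562 between same-numbered libraries), so the block only adds terms. Against 175Q the count of 7 was 189 by DESeq2, 368 without the filter, 2 with the replicate block, 3 with only the 2 groups compared and 1 without the 3 libraries with choroid plexus transcripts. The age difference of 16 genes was 486 without the filter and 6 with the replicate block. Without the filter Ttr, high in 1 library of each group, was called for 175QK772T against WT (edgeR adjusted p = 5.21e-151, and 0.72 with the filter). Counts without the filter may thus hold genes that rest on 1 library, and are no guide to how many genes differ. Leaving out 1 library gave 1271 to 1961 genes for 175QK772T against WT, 3164 to 4020 for 175Q against WT, 1 to 9 for 175QK772T against 175Q, 2797 to 3413 at 26 weeks, 9 to 26 for the ages and 1021 to 1223 for the regions. The cause was not tested. Of 95 named genes called against WT, 72 were called under every alternative and none reversed. In females only, calls lost included those of Calb2, Dcx, Etv1, Fat4, Fdft1, Fezf2, Gfap, Gja1, Glipr1, Gpr153 and Grik5. Those of Hmgcs1, Hspa1a, Hspa8, Neurod1, Nhlh1, Npy2r, Rorb, Slc1a2, Sox11 and Spred2 were lost there too. Signs reversed only for genes that were not called. With 1 library left out, Mapk3 ranged from -0.013 to 0.051, Myl4 from -0.085 to 0.090, Pomc from -0.343 to 0.258 and Ttr from -4.036 to 3.445. Mapk3 was at -0.001 without the sex term and -0.011 without the 3 libraries, Pomc at 0.373 in females only, and Ttr at 1.882 with the block, 2.394 with the compared groups alone, 3.803 in females only and 0.345 without the 3 libraries. Lists were recounted without 175QK772T replicate 4, in females only and without the 3 libraries, not for each library. Nothing here says whether the mice were littermates.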

Other observations

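Further regulators of development outside the lists stood at 0 or close to it in WT and were called higher in 175QK772T mice. They were picked after their values were seen. At these WT levels they passed the low-count filter only through the mutant libraries, 175Q included, so they could only be called higher. The homeobox genes Lhx4, Nkx1-1, Isl2 and En1 had means of 0.00251, 0.00594, 0.00297 and 0.0273 CPM in WT and of 0.416, 0.411, 0.182 and 0.18 CPM in 175QK772T. Hotairm1 and Hoxaas2, transcripts of the HoxA cluster, had no read pair in WT and means of 0.166 and 0.775 CPM in 175QK772T.

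Among abundant genes, also picked after their values were seen, several of synaptic signalling were lower. The adenylate cyclase gene Adcy1 fell from a mean of 1580 to 920 CPM (log2 fold change -0.78), Olfm1 from 1010 to 651 CPM (-0.62), the exchange factor gene Kalrn from 813 to 520 CPM (-0.64), the kinase gene Prkcb from 468 to 321 CPM (-0.53), and Cnih2, an AMPA receptor partner, from 370 to 230 CPM (-0.66). Dpysl3, Marcks and Stmn2, known from growing neurites, rose: Dpysl3 from 69.3 to 95.9 CPM (0.48), Marcks from 114 to 158 CPM (0.46), Stmn2 from 309 to 374 CPM (0.28), as did the ubiquitin hydrolase gene Uchl1, from 394 to 500 CPM (0.35). The edgeR adjusted p of these 9 genes was below 0.05.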
